A study of Mus musculus with 2 samples.

Results

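The 9 genes described here encode the enzymes that make the sugar donor UDP-GlcNAc and those that place GlcNAc on proteins or take it off. They were selected by symbol from the gene table, which lists 45777 genes, and all 9 were found: Gfpt1, Gfpt2, Gnpnat1, Pgm3, Uap1, Nagk, Ogt, Oga and Eogt. RNA-seq was performed on teratomas, tumours of mixed differentiated tissue that embryonic stem cells (ESCs) form in a host animal, and there was 1 library per group. One library came from an E14 teratoma, grown from the wild-type mouse ESC line E14. The other came from an E14-Sox2TA/WT teratoma, grown from E14 cells in which CRISPR-Cas9 editing had put T258A, alanine for the threonine at residue 258 of Sox2, into 1 allele while the other allele stayed wild type. Both groups were inoculated subcutaneously into BALB/c-nu mice, 3 per group, and harvested at day 14. These hosts lack mature T cells and keep innate cells such as macrophages, so host RNA can be part of either library. The edited line was grown from single sorted cells, and the sources do not say how many tumours went into a library. The labels call both samples teratoma, although their extraction text speaks of an ESC line. Sox2 is a transcription factor that ESCs and neural progenitors need, and threonine 258 is a residue that can carry O-GlcNAc, which an alanine cannot. The comparison therefore asks how transcripts of the O-GlcNAc machinery stood where 1 allele of Sox2, a protein it modifies, lacked this acceptor site. It cannot tell that change apart from other differences between the libraries.

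O-GlcNAc is a single sugar that Ogt adds to serines and threonines of nuclear and cytosolic proteins and that Oga removes, so the mark cycles. Its donor comes from the hexosamine pathway. Gfpt1 and Gfpt2 turn fructose-6-phosphate and glutamine into glucosamine-6-phosphate, the step that limits the flow, then Gnpnat1 acetylates the product, Pgm3 moves the phosphate, and Uap1 joins the sugar to UDP. Nagk feeds GlcNAc recovered from breakdown back into the same route, and Eogt places GlcNAc on EGF repeats of secreted and membrane proteins such as Notch receptors.

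The edited codon is shown first, because it defines the groups. In the GRCm38 reference it lies at chr3:34651187-34651189 on the + strand, in the coding sequence of Sox2, and the window chr3:34651157-34651219 has the reference threonine codon in capitals.
Sox2 codon 258: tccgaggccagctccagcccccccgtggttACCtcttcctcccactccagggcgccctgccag
Sox2 itself stood at a TPM of 246 and 130 in the E14 and the E14-Sox2TA/WT teratoma respectively, which was 1.89-fold lower in the latter (95% counting interval 1.84 to 1.94), and values below keep this order. TPM, a measure of transcript abundance, corrects reads for transcript length and gives every library the same sum, so that levels can be compared between genes. The gene level does not tell the edited allele from the wild-type one, so it does not check the label.

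The libraries held 50529171 and 49030281 reads on genes. Of the 45777 genes, 11578 reached a TPM of 10 in at least 1 library and entered the fold rule, which called a gene when its TPM differed by more than 2-fold. Their median log2 ratio, E14-Sox2TA/WT over E14, was -0.19 on the TPM scale and 0.01 on the FPKM scale, a shift of 0.20, and mitochondrial genes took 5.17% and 9.70% of the summed TPM. Each log2 ratio is therefore also given relative to the median of all tested genes. The ratios also followed transcript composition. A trend over transcript length and GC content was therefore fitted to the tested genes, and some values are also given after its subtraction. The cell types differed as well. The 8 neuronal markers summed to a TPM of 2987 and 462, with 8 of 8 past the fold rule and lower. The 8 markers of pluripotent cells went from 78.4 to 1926, with 8 of 8 higher. Mesenchyme markers summed to 628 and 1508 (4 of 8 higher), epithelium markers to 392 and 1185 (4 of 8 higher) and macrophage markers to 875 and 1534 (2 of 8 higher). The pluripotent markers Dppa4, Esrrb, Nanog, Tdgf1, Utf1 and Zfp42, with Krt14 (epithelium) and Mrc1 (macrophage), had TPM under 10 in the E14 library. The neuronal markers Rbfox3 and Syt1 had TPM under 10 in the E14-Sox2TA/WT library. Such genes entered the rule only through the library where they were high, so they had to differ. Cartilage markers summed to 117 and 114, a sum carried by Col2a1 (58.0 and 74.8), and 6 of the 8 had a higher TPM in the E14-Sox2TA/WT library. Among the cartilage markers below the TPM filter, Acan had 47 and 207 reads, Col10a1 11 and 326, Comp 11 and 49, Matn3 28 and 135, and Matn1 0 and 46, while Sox9, 1 of the 3 above it, was past the rule and lower (44.1 and 16.9). Summed reads of 9 Y-linked genes were 6023 and 0, and Xist, the RNA that silences an X chromosome, had a TPM of 1.64 and 5.502. The part of these differences in the values below was not tested. In bulk RNA, fewer cells of a type and less RNA per cell cannot be told apart.

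Of the 9 genes, 2 were past the fold rule and higher in the E14-Sox2TA/WT library, Gfpt2 and Gnpnat1, where 10.8% of all tested genes were higher. None of the 9 was past the rule and lower, where 18.7% of all tested genes were, and the other 7 were in neither class. With a fold above 1.5, Gfpt1 joined as the only lower gene, where 32.3% of all tested genes were lower, and the higher genes were still 2, where 18.2% were higher. All 9 passed the TPM filter. Gfpt2 passed it only through the E14-Sox2TA/WT library, where it was high, so its ratio could not have been near 1. By TPM, the median log2 ratio of the 9 genes was -0.16, or 0.03 relative to all tested genes. On the same scale 5 of the 9 lay within 0.2 of the median of all tested genes. The share of all tested genes within that limit was not computed, so the count cannot be called high or low. Of those 5, Nagk (-0.40), Ogt (0.28), Oga (0.33) and Eogt (0.42) were farther than 0.2 from the median after the length and GC correction. After the length and GC correction the median of the 9 was 0.24, where that of all tested genes was -0.05. With 1 library per group no p-value can be given, and the intervals below cover counting error only, not the difference between tumours. The plot of ratio against level shows the 9 genes among the rest.

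**Figure D1:**
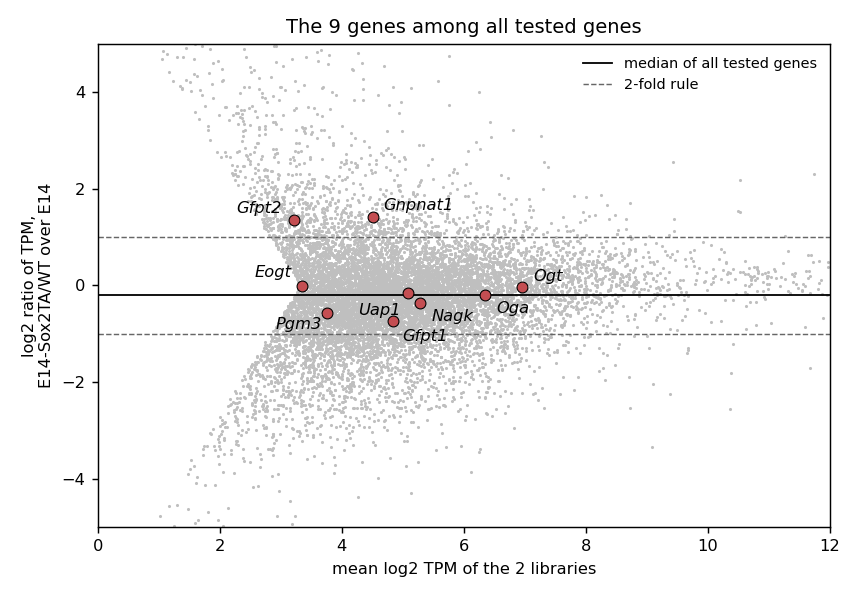
Log2 ratio of TPM (E14-Sox2TA/WT over E14, vertical axis) against the mean log2 TPM of both libraries (horizontal axis). Grey points are the 11440 tested genes inside the frame, with 111 beyond it, and red points are the 9 genes. Gfpt2 and Gnpnat1 lie above the upper dashed line of the 2-fold rule, and the other 7 lie between the dashed lines.

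At the entry of the pathway, the ratios of the 2 genes of the first step lay on opposite sides of 1. Gfpt1, the broadly expressed form of the enzyme, had 5583 and 3726 reads. Its TPM was 37.1 and 22.2, 1.67-fold lower (1.61 to 1.74) in the E14-Sox2TA/WT teratoma. Its log2 ratio of -0.74, or -0.55 relative to all tested genes, did not pass the fold rule. Of the tested genes, 73.8% had a higher ratio. After the length and GC correction the log2 ratio of Gfpt1 was -0.28, or -0.23 relative to all tested genes. Gfpt2, the second form of the same enzyme, had 419 and 1189 reads and a TPM of 5.82 and 14.8, 2.55-fold higher (2.28 to 2.85) in the E14-Sox2TA/WT teratoma. Its log2 ratio was 1.35, or 1.54 relative to all tested genes, and 7.18% of tested genes had a higher ratio. Gfpt1 was thus the more abundant form in both libraries, but by different margins. The ratio of Gfpt1 to Gfpt2, which is free of any factor common to a library, was 6.38 in the E14 teratoma but 1.498 in the edited one, 4.26-fold lower (3.78 to 4.80), and 3.56-fold lower after the length and GC correction. Gfpt2 made up 13.6% of the summed TPM of both genes in the first library and 40.0% in the second. The sum itself was 43.0 and 37.0 TPM, a log2 ratio of -0.22 that was -0.02 relative to all tested genes. A lncRNA, Gm36507, spans Gfpt2 in the RefSeq annotation, and it had 16 and 0 reads, few beside those of Gfpt2.

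**Figure D2:**
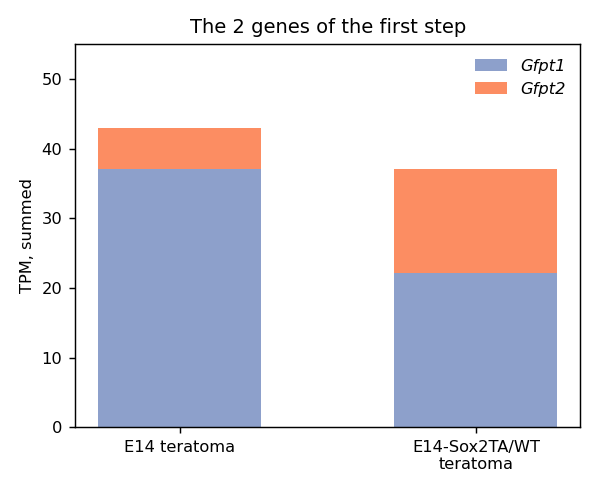
Stacked bars of the TPM of Gfpt1 (blue) and Gfpt2 (orange), the 2 genes of the first step, in the E14 and the E14-Sox2TA/WT teratoma library (1 library each, so no error bar). The stacks reach 43.0 and 37.0, and the orange portion is 13.6% of the first and 40.0% of the second.

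Because these 2 genes catalyse the same reaction and differed in opposite directions, their promoters are shown together, with 250 bases before and 50 after the start, from RefSeq on GRCm38.p6. Gfpt1 lies at chr6:87042846-87092207 (+ strand, 19 exons in its longest coding transcript) and its promoter at chr6:87042596-87042895. Gfpt2 lies at chr11:49794155-49838620 (+ strand, 19 exons) and its promoter at chr11:49793905-49794204. Capitals mark CCAAT (or ATTGG on the other strand) and GGGCGG (or CCGCCC), with overlapping matches counted.
Gfpt1: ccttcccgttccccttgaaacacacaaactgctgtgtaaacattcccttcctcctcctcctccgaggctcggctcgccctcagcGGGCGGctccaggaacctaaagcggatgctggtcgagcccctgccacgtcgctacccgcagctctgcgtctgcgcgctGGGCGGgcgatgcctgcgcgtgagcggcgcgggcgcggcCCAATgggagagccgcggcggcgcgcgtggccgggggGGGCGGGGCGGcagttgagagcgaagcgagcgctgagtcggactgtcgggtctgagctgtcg
Gfpt2: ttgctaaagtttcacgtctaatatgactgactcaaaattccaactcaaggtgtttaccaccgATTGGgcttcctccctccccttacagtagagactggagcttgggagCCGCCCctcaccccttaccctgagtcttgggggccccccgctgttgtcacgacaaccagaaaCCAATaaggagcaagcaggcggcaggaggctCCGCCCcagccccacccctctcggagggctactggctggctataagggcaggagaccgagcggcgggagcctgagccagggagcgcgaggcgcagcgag
The Gfpt1 promoter held 38 CpG dinucleotides, a count exceeded by 4.45% of the 32851 promoters in the table, and the Gfpt2 promoter held 15, exceeded by 33.0%, against a median of 7. Gfpt1 had 1 match to CCAAT and 4 to GGGCGG, and Gfpt2 had 2 of each. These letters are common, with CCAAT in 37.4% and GGGCGG in 35.7% of all promoters of the same length. CTTTGT, the core that Sox factors bind (ACAAAG on the other strand), was in neither, and it occurred in 18.7% of all promoters. A TATAAA match, found in 13.6% of all promoters, was also in neither. Promoters were found for 7 of the 9 genes, and those of Pgm3, Uap1 and Oga held 33, 28 and 26 CpG dinucleotides, Nagk 17, and the 2 starts of Ogt 20 and 14. Among these 7 genes CTTTGT was matched only in Oga, 1 time. Such matches describe the letters of a window and nothing about binding.

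The acetyltransferase of the second step, Gnpnat1 (chr14:45376421-45388987, - strand, 6 exons), had the highest ratio of the 9 genes. It had 875 and 2607 reads and a TPM of 13.96 and 37.0, 2.65-fold higher (2.45 to 2.87) in the E14-Sox2TA/WT teratoma. Its log2 ratio was 1.41, or 1.60 relative to all tested genes, and 6.68% of tested genes had a higher ratio. This gene moved from the seventh place among the 9 in the E14 library to the third in the other. Set against Gfpt1 in the same library, its TPM was 0.376 times that of Gfpt1 in the E14 teratoma and 1.67 times in the E14-Sox2TA/WT teratoma, a 4.44-fold change (4.07 to 4.84) that was 2.06-fold after the length and GC correction. There are 2 limits to this value. The first is sequence composition. The longest coding transcript of Gnpnat1 has a GC content of 39.0%, against a median of 50.4% over the tested genes, and for the 291 tested genes within 1 percentage point of it the median log2 ratio, relative to all tested genes, was 0.41. Of those 291 genes, 5.498% had a higher ratio than Gnpnat1. After the length and GC correction, its log2 ratio was 0.77 and no longer past the fold rule, while that of Gfpt2 was 1.56. The second is an overlap with Styx, a pseudophosphatase gene on the opposite strand. The 2 genes share 464 bases of their RefSeq spans, whereas in the GENCODE models 88.5% of the 50-base stretches of the Gnpnat1 transcript also lie in another gene, mostly Styx. The sources do not say whether reads were counted by strand. Styx had 607 and 1161 reads and a TPM of 5.92 and 10.1, also higher in the E14-Sox2TA/WT library.

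The mutase and the pyrophosphorylase that complete UDP-GlcNAc did not share this direction. Pgm3 (chr9:86552476-86571878, - strand, 13 exons), which converts GlcNAc-6-phosphate to GlcNAc-1-phosphate, had 1750 and 1235 reads and a TPM of 16.4 and 11.0. It was 1.49-fold lower (1.38 to 1.60) in the E14-Sox2TA/WT teratoma, with a log2 ratio of -0.57 that was -0.38 relative to all tested genes. Its last part overlaps Dop1a on the opposite strand by 3331 bases, and 37.4% of the stretches of its transcript are shared. Dop1a had 2249 and 1014 reads and a TPM of 11.9 and 4.15. Here too the partner differed in the same direction as the gene, in this case lower. The ratio of Pgm3 to Gfpt1 was 0.441 and 0.496, a log2 change of 0.17 (0.05 to 0.29) that turned to -0.33 after the length and GC correction. Uap1 (chr1:170141223-170174964, - strand, 10 exons), which makes UDP-GlcNAc itself, had 2660 and 2292 reads and a TPM of 36.1 and 32.2. Its log2 ratio was -0.16 (-0.24 to -0.08), which was 0.03 relative to all tested genes and so at their median. The sign of the Uap1 value depends on the scale, since its log2 ratio was 0.04 on FPKM and -0.17 on reads per library total, a gap of 0.21 that 3.56% of tested genes equalled or exceeded. The ratio of Uap1 to Gfpt1 went from 0.971 to 1.45 by TPM, a log2 change of 0.58 (0.48 to 0.68), and the change was 0.37 by read counts and 0.10 after the length and GC correction. Across the 5 genes of sugar supply, the log2 ratios of TPM spanned 2.15, from Gfpt1 to Gnpnat1. Both ends changed with the length and GC correction, where Pgm3 was the lowest of the 5, at -0.60, and Gfpt2 the highest, at 1.56. Uap1 was then at -0.17.

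The salvage kinase Nagk (chr6:83794983-83802556, + strand, 9 exons), which phosphorylates free GlcNAc, had 1469 and 1265 reads. Its TPM was 44.3 and 34.3, 1.29-fold lower (1.196 to 1.39) in the E14-Sox2TA/WT teratoma, with a log2 ratio of -0.37 that was -0.18 relative to all tested genes. The ratio of Nagk to Gfpt1 was 1.19 and 1.55, a log2 change of 0.37 (0.25 to 0.50). After the length and GC correction the log2 ratio was -0.28 for Gfpt1 and -0.44 for Nagk, so this change turned to -0.17 and the order of the 2 genes rests on the correction.

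The 2 enzymes that cycle the mark were the most abundant of the 9 genes in both libraries and differed little in TPM. Ogt (chrX:101640011-101684351, + strand, 22 exons), the only known transferase for O-GlcNAc in the nucleus and cytosol, had 16124 and 17657 reads and a TPM of 125 and 123. Its log2 ratio was -0.03 (-0.06 to 0.00), or 0.16 relative to all tested genes, and 0.17 on the FPKM scale. Oga (chr19:45750255-45783644, - strand, 16 exons), the hydrolase that removes the mark, had 10575 and 10232 reads and a TPM of 87.3 and 76.0. Its log2 ratio was -0.20 (-0.24 to -0.16), or -0.01 relative to all tested genes. After the length and GC correction, Ogt was at 0.24 and Oga at 0.29. Relative to all tested genes these corrected values were 0.28 and 0.33. The signs of both single ratios thus rest on the scaling. Ogt over Oga was 1.44 in the E14 teratoma and 1.62 in the E14-Sox2TA/WT teratoma, 1.13-fold higher (1.09 to 1.17), a difference larger than counting error and of unknown size beside the difference between tumours. Its direction was not kept after the length and GC correction, where the log2 change went from 0.17 to -0.049. Together Ogt and Oga made up 56.5% and 55.2% of the summed TPM of the 9 genes, and that sum was 377 and 361. Ogt is X-linked, and the median of the 421 tested genes of its chromosome was 0.02 on the same relative log2 scale.

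Eogt (chr6:97110016-97151484, - strand, 18 exons), which works in the endoplasmic reticulum, was the lowest of the 9 in the E14-Sox2TA/WT library. It had 1012 and 1119 reads and a TPM of 10.2 and 10.1. The log2 ratio was -0.01 (-0.13 to 0.12) on TPM, 0.19 on FPKM and 0.18 relative to all tested genes. After the length and GC correction the log2 ratio of Eogt was 0.38, or 0.42 relative to all tested genes. Its TPM was 0.081 of that of Ogt in the first library and 0.082 in the second, a log2 change of 0.02 (-0.11 to 0.14). At this depth a difference between the libraries in that ratio was not detectable.

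**Figure D3:**
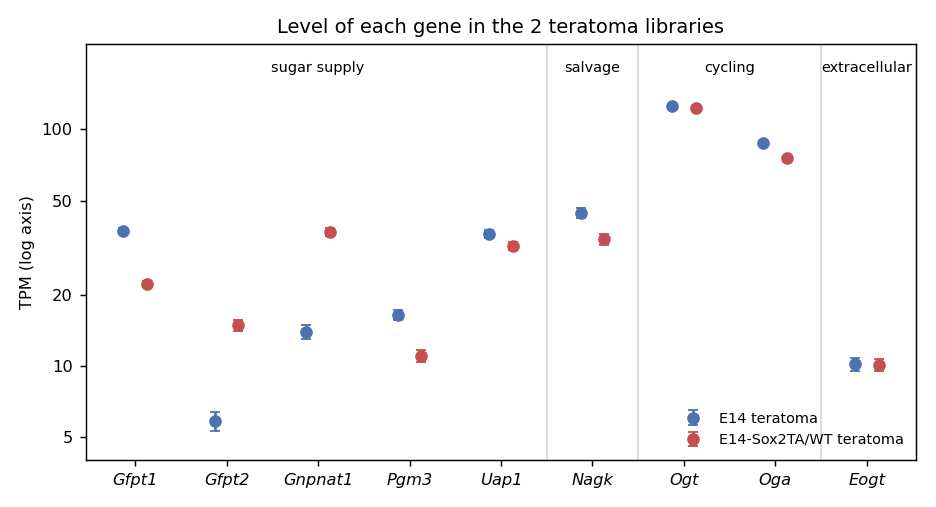
TPM of each gene (log axis) in the E14 (blue) and E14-Sox2TA/WT (red) teratoma library, ordered by role, with 1 library per group and bars for the 95% exact Poisson interval of the read count. Gfpt2 and Gnpnat1 are the only genes whose red point lies above the blue one, and Ogt and Oga stand highest in both libraries.

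Ranked by TPM, the E14 library ran Ogt, Oga, Nagk, Gfpt1, Uap1, Pgm3, Gnpnat1, Eogt and Gfpt2. Only Gfpt1 and Uap1 were neighbours whose counting intervals overlapped. In the E14-Sox2TA/WT library the order was Ogt, Oga, Gnpnat1, Nagk, Uap1, Gfpt1, Gfpt2, Pgm3 and Eogt. Here the intervals of Gnpnat1 and Nagk, of Nagk and Uap1, and of Pgm3 and Eogt overlapped. The level of a transcript says nothing about the activity of its enzyme.

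**Figure D4:**
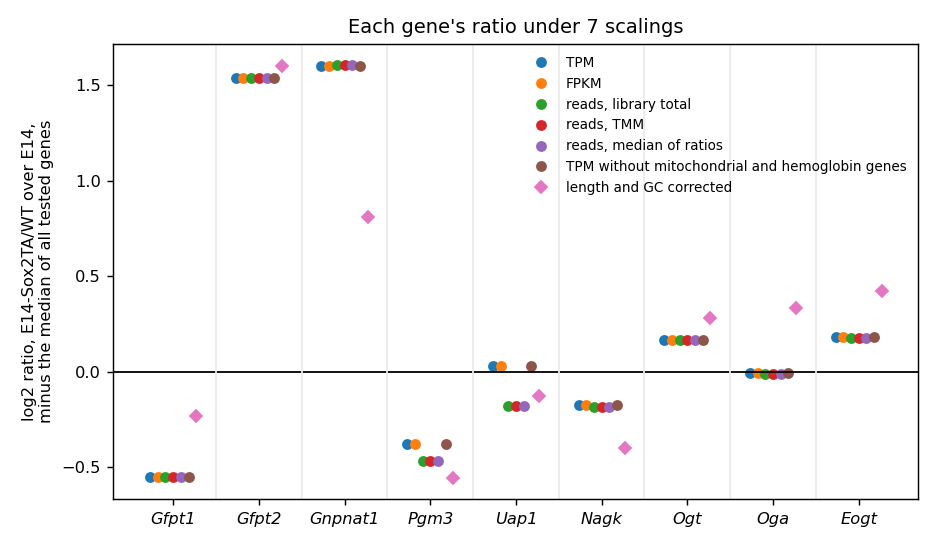
Log2 ratio of each gene (E14-Sox2TA/WT over E14) minus the median of all tested genes under the same scaling (vertical axis), for 7 scalings. Gfpt2 stays above 1.5 in all 7, while Gnpnat1 is above 1.5 in 6 and drops after the length and GC correction, and Uap1 and Oga fall on both sides of 0.

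The chromosomes that carry the 9 genes stood close to the median of all tested genes. Their median log2 ratios relative to it ran from -0.10 on chromosome 14, which carries Gnpnat1, to 0.05 on chromosome 1, which carries Uap1. Chromosomes 8 (-0.50) and 15 (0.47) stood apart and hold none of the 9. The nearest expressed genes were compared with the 3 genes that differed most by TPM ratio, without the length and GC correction. Beside Gfpt1, the kinase gene Aak1 had a TPM of 17.0 and 6.49, a log2 ratio of -1.19 relative to all tested genes, and the iron-sulfur scaffold gene Nfu1 had 71.8 and 56.2, at -0.16. Beside Gfpt2, Mapk9, which encodes the kinase JNK2, had 39.9 and 19.1, at -0.87, against 1.54 for Gfpt2, and Cnot6, a deadenylase gene, had 48.7 and 64.6, at 0.60. Beside Gnpnat1, the proteasome subunit gene Psmc6 had 163 and 208, at 0.54, and Styx was at 0.97. Next to the other 6 genes, these values ran from -1.32 (Dop1a, near Pgm3) to 1.42 (Gm4779, near Ogt).

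The genes around the pathway were described from 6 lists, by the same fold rule and by the median log2 ratio after 1 was added to each TPM. Over all 18558 genes that reached a TPM of 1 in either library, that median was -0.06, and 0.08 after the length and GC correction. The counts of each list stand beside 10.8% of all tested genes higher and 18.7% lower. A gene at a TPM under 10 in the library where it was low passed the filter only through the other, and so had to differ, as did 6 of the 9 higher genes in the lists (Has2, Gcnt1, Gcnt2, Gxylt1, Poglut3 and Aga) and none of the 11 lower ones. In the list of hexosamine neighbours, which holds the enzymes that feed or drain the pathway, 17 genes were tested, 1 was higher, 1 was lower and 15 were neither, with a median of 0.00. Hk1, the hexokinase that predominates in brain, had a TPM of 75.1 and 18.8, 4.01-fold lower (3.82 to 4.21) in the E14-Sox2TA/WT teratoma. Uap1l1, a paralogue of Uap1, had 13.1 and 31.1, 2.37-fold higher (2.15 to 2.63). The most abundant genes of the list were Gpi1, the isomerase that makes fructose-6-phosphate, with 454 and 230, 1.97-fold lower (1.94 to 2.01) and at the edge of the rule, and Glul, glutamine synthetase, with 217 and 190.

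In the list of other UDP-GlcNAc users, 17 genes were tested, 4 were higher, 5 were lower and 8 were neither, with a median of -0.32. The higher ones included Has2, which makes hyaluronan, with a TPM of 6.54 and 22.0, 3.37-fold higher (3.09 to 3.68). Alg13, which serves the start of N-glycan synthesis, had 13.98 and 45.3, 3.24-fold higher (3.04 to 3.45). Gcnt1 and Gcnt2, which branch glycans, were 4.61-fold and 2.16-fold higher, from 2.68 to 12.3 and from 7.49 to 16.2. The lower ones were genes of heparan sulfate synthesis and N-glycan processing. Ext2, a heparan sulfate polymerase subunit, had 91.8 and 41.5, 2.21-fold lower (2.12 to 2.31), whereas its partner Ext1 had 44.0 and 69.5 and did not pass the rule. Extl3 and Extl2, of the same family, were 2.89-fold and 2.44-fold lower, and Mgat5 and Mgat3, which add GlcNAc to N-glycans, were 2.47-fold and 2.42-fold lower.

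Eogt acts on EGF repeats, as do most but not all enzymes of the next list. Of that list 10 were tested, 2 were higher, 2 were lower and 6 were neither. Its median was -0.22, and 0.34 after the length and GC correction. The fringe genes Mfng and Lfng, which extend O-fucose on Notch, had a TPM of 57.9 and 17.8 and of 60.1 and 20.9, 3.24-fold (3.01 to 3.50) and 2.88-fold (2.70 to 3.08) lower. Gxylt1, which adds xylose, and Poglut3, which adds glucose, were 2.42-fold and 2.31-fold higher. Eogt itself lay between them, with 10.2 and 10.1. Another list covers lysosomal breakdown and sugar salvage, and it also holds genes that work outside the lysosome. Of its genes, 11 were tested, 1 was higher (Aga, 9.05 and 19.6), none was lower and 10 were neither, with a median of 0.09. After the length and GC correction, the median of that list was 0.33, beside 0.08 for all genes. Hexa, a hexosaminidase subunit, had 64.1 and 84.7 and did not pass the rule.

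Of the partners of Ogt, 14 were tested, none was higher, 3 were lower and 11 were neither, a share near the 18.7% lower over all tested genes, with a median of -0.36. The 3 were Kansl1, a subunit of a histone acetyltransferase complex (70.8 and 27.0, 2.62-fold lower), Tet3, a 5-methylcytosine oxidase (26.5 and 11.0, 2.41-fold lower) and Trak1, a mitochondrial transport adaptor (43.5 and 18.7, 2.32-fold lower). The median of this list was 0.34 after correction for length and GC content, so its sign depends on that choice. The corepressor gene Sin3b, at 201 and 174, and Mcrs1, at 144 and 150, were the most abundant. The unfolded protein response, which can induce genes of the hexosamine pathway, was the last list. Of its 15 tested genes, 1 was higher, none was lower and 14 were neither, with a median of 0.18. That median was 0.02 without chromosomes 8, 15, X and Y. After the length and GC correction it was 0.33, beside 0.08 for all genes. Creld2, on chromosome 15, had 51.7 and 144, 2.79-fold higher (2.64 to 2.95). The chaperone genes Hspa5 and Hsp90b1 had 483 and 682 and 464 and 649, both short of the rule.

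**Figure D5:**
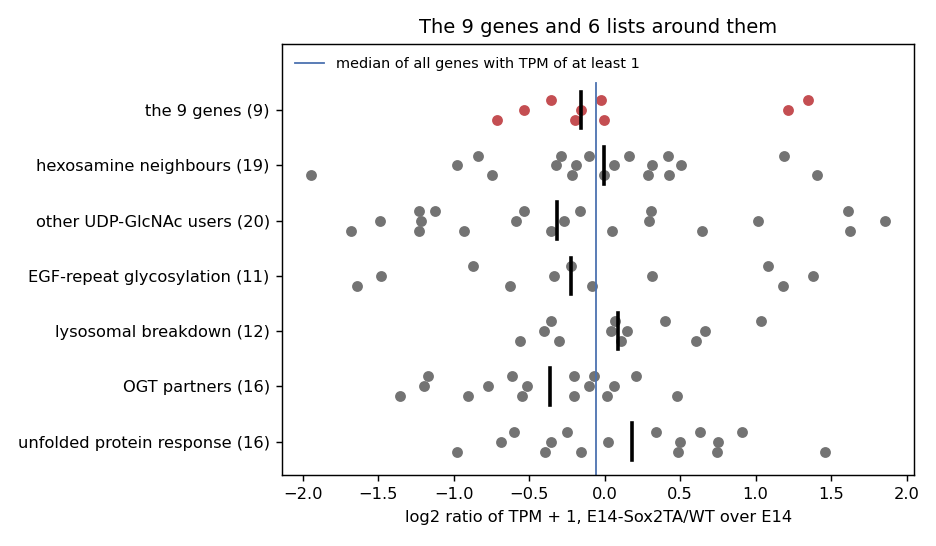
Log2 ratio of TPM with 1 added (E14-Sox2TA/WT over E14, horizontal axis) for the 9 genes (red) and for the genes of 6 lists that reached a TPM of 1 (grey, number of genes in parentheses), with black bars at the medians and a blue line at the median of all such genes, -0.06. The list of other UDP-GlcNAc users spreads widely on both sides, and the list medians run from -0.36 to 0.18.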

How the data were processed

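Poly(A) RNA from teratomas was sequenced as 2 libraries, 1 per group. The authors deposited 1 gene table on mm10 with a read count, FPKM and TPM per library. The deposited counts are whole numbers without normalization, the deposited FPKM are scaled by transcript length and library total, and the deposited TPM are rescaled to a common sum. Per the labels, the submitters' processing notes name bcl2fastq 2.20.0, Trimmomatic, HISAT2 2.1.0 and StringTie 2.1.3b. Strand use in counting is not given in the sources used here.

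Fold changes are ratios of TPM, and DEGs followed the study's rule: more than 2-fold, and a TPM that reaches 10 in either library. Here the rule called 1253 genes higher and 2167 lower, more in each direction than the study reports for these teratomas. With 1 library per group there are no p-values. Intervals are at 95%: Clopper-Pearson for a ratio between libraries, exact Poisson for a level and Wald from 4 read counts for a ratio of 2 genes, and all cover counting error only. With 50529171 and 49030281 reads on genes, that error is small for abundant genes. TMM factors came from edgeR 4.0.16 in R 4.3.3, and the length and GC trend was a regression on splines (patsy 1.0.2) fitted to tested genes, using the longest coding GENCODE transcript. Scripts ran in Python 3.11.15 with numpy 2.4.6, scipy 1.17.1 and pandas 2.3.3, and were tested on simulated data. Positions and promoters were taken from RefSeq on GRCm38, the same build, and 45679 of the 45777 genes had a position.

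The 9 genes and all lists were chosen with earlier results of these data known. Genes named were the 9, in each list the 2 with the highest TPM and up to 4 past the rule in each direction, the nearest genes with a TPM of at least 10, Sox2 and Xist. One gene that this rule names is not reported here. Alternatives covered 8 scalings, the fold, the TPM minimum, the pseudocount, left-out chromosomes and overlapping genes.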

Additional observations from a re-analysis of the deposited data

How the results depend on the processing

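Of 128 alternative values for the main results, 10 were classed as moved by more than the set limits. Another 3, all ratios of 2 genes, were classed as turned in direction. Medians of gene sets that changed sign were not put in that class. Of the 9 genes, 1 was past the rule and higher, not 2, after the length and GC correction (Gfpt2), with a TPM of at least 10 required in both libraries (Gnpnat1) and, chosen after seeing the data, with genes that overlap another expressed gene left out (Gfpt2). With a fold above 3 the count was 0, and with a fold above 1.5 there was 1 lower (Gfpt1). With read counts the log2 change of Uap1 to Gfpt1 was 0.37. The length and GC correction, applied to pairs of genes after seeing the data, turned the change of Ogt to Oga to -0.049, of Nagk to Gfpt1 to -0.17 and of Pgm3 to Gfpt1 to -0.33, and gave -1.83 for Gfpt1 to Gfpt2, 1.04 for Gnpnat1 to Gfpt1 and 0.10 for Uap1 to Gfpt1. It also changed the sign of 3 medians. That of the Ogt partners went from -0.36 to 0.34, that of the EGF-repeat list from -0.22 to 0.34 and that of the 9 genes from -0.16 to 0.24. The cause of these shifts was not tested beyond each setting's own construction. Of 73 alternative values for single genes, 44 moved, and 0 of 14 chromosome medians did. Also added after seeing the data were the lists without chromosomes 8, 15, X and Y and the sum of Gfpt1 and Gfpt2 by FPKM. No paired analysis was possible because each group has 1 library, and leaving out a library was not possible for the same reason. Depth limits the 9 genes little, with 419 reads or more in each library, whereas the difference between tumours is not measured.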
